A study of Mus musculus with 8 samples.

Results

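The genes for the proteins of the cytosolic ribosome were taken as those whose symbol is Rps or Rpl followed by a number, together with Rplp0, Rplp1, Rplp2 and Rpsa, without gene models marked as pseudogenes. The rule found 77 of the 31053 genes in the files, 31 for proteins of the small subunit and 46 for proteins of the large subunit. All 77 passed the filter on low values, which asked for a level of at least 1 CPM (counts scaled to a common library size) in at least 4 of the 8 libraries and left 12889 genes to test. The rule uses names only and no measured value.

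A ribosome is built from ribosomal RNA and one copy of most of these proteins, so that a cell makes the proteins in nearly equal numbers. Their mRNAs are among the most abundant in most cells, are short and stable, and begin with a run of pyrimidines, the TOP motif, through which mTORC1 signalling and the factor Larp1 adjust their translation. The small subunit reads the mRNA, the large subunit joins the amino acids, and the acidic stalk of the large subunit recruits the GTPases that drive initiation and elongation. In the retinal pigment epithelium (RPE), the pigmented layer behind the photoreceptors, protein synthesis serves the daily digestion of outer segment tips and the visual cycle.

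The samples were RPE isolated at P29 from Bbs8-/- mice, which lack Bbs8, a subunit of the BBSome that carries cargo to and from cilia, in every cell, and from Bbs8+/+ mice as wild type controls, all of strain C57/Bl6 and of undetermined sex. Each library came from an individual animal according to the study. There were 4 libraries of each genotype, so that n = 4 for each genotype wherever an error is given. RPE sheets were peeled from trypsin-treated eyecups after cornea, lens and retina had been removed, and the knockout is a constitutive one, so that the photoreceptors facing this RPE lack Bbs8 as well. Libraries were made with the QuantSeq 3′ protocol, which reads 1 end of each transcript, so that counts follow transcript number without division by length.

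The libraries held between 2389835 and 3093428 counts on genes. The smallest signal taken as detectable, 3 counts, is 0.970 to 1.26 CPM at this depth, which allows for counting error alone. Bbs8 is annotated as Ttc8, and its log2 fold change in Bbs8-/- was -3.34 (SE 0.294, adjusted p = 2.48e-11). All 18 genes of the RPE list passed the filter, and retinal and lens transcripts were present despite the dissection (20 of 20 photoreceptor and 17 of 18 lens genes passed). Genes of the photoreceptor list took 6.06% to 6.29% of counts in Bbs8+/+ libraries and 2.68% to 2.76% in Bbs8-/- libraries, lens genes 0.373% to 0.393% and 0.0664% to 0.0730%, and erythrocyte genes 0.506% to 0.546% and 0.208% to 0.226%. Of the 20 photoreceptor genes 14 fell and 4 cone genes (Opn1sw, Opn1mw, Gnat2 and Pde6h) rose. For comparison with this and the following lists, 6.8% of all tested genes were lower in Bbs8-/- and 5.46% were higher. Genes of the RPE list took 4.02% to 4.14% and 5.08% to 5.46%, but 6 of the 18 rose and 4 fell, with a median log2 fold change of 0.01. Other lists were higher in Bbs8-/-. Mueller and reactive glia genes took 0.726% to 0.783% and 0.968% to 1.04%, with 6 of 11 higher, among them the reactive genes C4b and Serpina3n. Ocular surface epithelium genes took 0.00413% to 0.00592% and 0.0117% to 0.0149%, with 4 of 5 higher, and of these the keratins Krt5 and Krt14 had no count in any Bbs8+/+ library. The shares of microglia, bipolar and amacrine, fibroblast and endothelial genes overlapped between the genotypes. Reads on no gene model made up 17.0% to 18.4% of a Bbs8+/+ library and 19.8% to 20.6% of a Bbs8-/- library. The shares other than these overlapping ones separate the genotypes, and their part in the differences below was not tested. One library stood apart within its genotype: of the 77 genes, Bbs8+/+ replicate 1 had the lowest of the 4 Bbs8+/+ values for 44 and the highest for 23, so results are also given without it.

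Transcript starts show what many of these genes share at the level of sequence. Of the 77 genes, 57 had a start in the RefSeq table for GRCm38.p6. Within 15 bases on either side of the start, an unbroken run of at least 8 pyrimidines (C or T) on the transcribed strand was found in 25 of the 57 (43.9%), against 13.9% of all 27025 genes in the table and 13.0% of 69 genes for mitochondrial ribosomal proteins. The 30-base windows below, printed 5′ to 3′ on the strand of the gene, show the longest such runs in capitals for 4 genes that fell in Bbs8-/- RPE (the first 4) and for 4 that did not pass the test (the last 4). The 16th base of each window is the start.
Rpl14 (chr9:120571502-120571531, plus strand): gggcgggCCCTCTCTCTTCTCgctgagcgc
Rpl13a (chr7:45128731-45128760, minus strand): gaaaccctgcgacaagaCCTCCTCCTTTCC
Rps10 (chr17:27635230-27635259, minus strand): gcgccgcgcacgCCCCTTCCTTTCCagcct
Rplp2 (chr7:141447636-141447665, plus strand): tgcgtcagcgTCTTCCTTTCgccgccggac
Rpl7a (chr2:26910792-26910821, plus strand): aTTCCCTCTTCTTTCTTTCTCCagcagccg
Rpl27a (chr7:109519180-109519209, plus strand): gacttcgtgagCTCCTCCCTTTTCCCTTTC
Rpl34 (chr3:130730323-130730352, minus strand): CCTTCCTTTTCCTCTTCCggggacggtgct
Rpl35 (chr2:39005117-39005146, minus strand): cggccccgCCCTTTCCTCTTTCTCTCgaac

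A run of this kind lay within 15 bases of the start in 5 of the 18 genes that fell and had a listed start (27.8%). The same held for 20 of the 39 that did not pass the test (51.3%). For a gene with several listed starts, the longest run was counted. Such a run need not begin at the start as a TOP motif does, and that of Rpl13a lies wholly after it. The letters CTTCCGG, a core that ETS factors such as GABP are known to bind, were present on either strand of the 300-base start region (250 bases before to 50 after the start) of 24 of the 57 genes (42.1%), against 9.93% of all genes and 37.7% of the mitochondrial ribosomal protein genes. They were found in 8 of the 18 genes that fell (44.4%) and in 16 of the 39 that did not pass (41.0%). These matches describe letters in a window and are no evidence of binding.

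In Bbs8-/- RPE, 30 of the 77 ribosomal protein transcripts fell and none rose by edgeR's quasi-likelihood test with Benjamini-Hochberg adjustment over all tested genes. The share that fell was 39.0%, while 6.8% of all tested genes were lower and 5.46% were higher. These sets differ in level, with a median of 212 CPM for the 77 genes and 18.9 CPM for all tested genes. More counts make a given change easier to call, and the shares were not matched for level. At an unadjusted p under 0.05 the same test gave 44 of the 77 lower and 2 higher. Of all 12889 tested genes it gave 1563 lower and 1453 higher. DESeq2 called 31 of the 77 lower and 0 higher, and 880 lower and 724 higher over all tested genes. The log2 fold change was below 0 for 62 of the 77 genes and above 0 for 15, and its median was -0.25, against 0.02 over all tested genes. The smallest value was -1.10 for Rpl10a and the largest 1.09 for Rps6, which did not pass the test. In bulk RNA, fewer cells that express a gene highly and less of its mRNA per cell cannot be told apart.

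The fall was of like size in both subunits. Of the 31 small subunit genes 14 fell (median log2 fold change -0.25), and of the 46 large subunit genes 16 fell (median -0.24). Every Bbs8-/- library was below every Bbs8+/+ library for 30 of the 77 genes, of which 27 passed the test. Of all tested genes, whose median level was lower, 8.64% showed this separation. The reverse held for 1 gene, Rps6, against 7.42% of all tested genes. The 3 genes that fell although their libraries overlapped were Rpl10a, Rpl3 and Rpl37a.

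**Figure D1:**
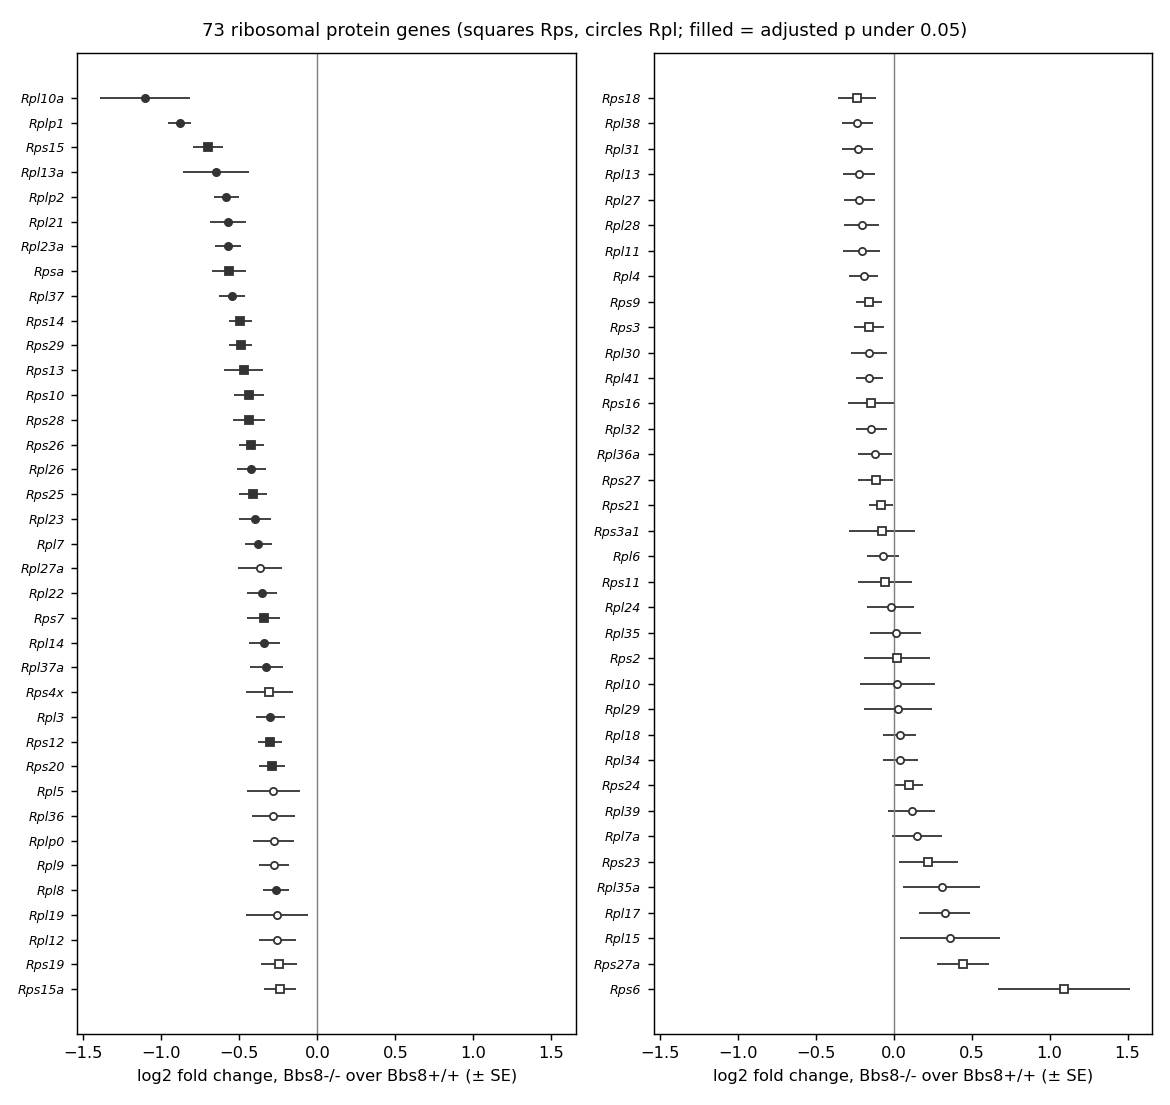
Fitted log2 fold change (Bbs8-/- over Bbs8+/+, horizontal axis) with its standard error for 73 of the 77 ribosomal protein genes, in rank order over 2 columns. Squares are small subunit genes, circles are large subunit genes, and filled symbols passed an adjusted p of 0.05. All 27 filled symbols lie to the left of 0.

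Added together, the 77 genes took 1.95%, 2.05%, 2.08% and 2.06% of the counts on genes in Bbs8+/+ and 1.73%, 1.68%, 1.71% and 1.78% in Bbs8-/-. The Bbs8+/+ libraries lay above the Bbs8-/- libraries without overlap, and replicate 1 was the lowest of them. The mean was 2.04% ± 0.0607 (SD) in Bbs8+/+ and 1.73% ± 0.0425 in Bbs8-/-, a difference of -0.308 percentage points, and -0.338 without Bbs8+/+ replicate 1. When photoreceptor, lens and erythrocyte genes were left out of the denominator, the difference was -0.410 percentage points (2.19% against 1.78%). The small subunit share went from 0.9996% ± 0.0252 to 0.852% ± 0.0150 and the large subunit share from 1.04% ± 0.0355 to 0.876% ± 0.0280. The 75 genes for mitochondrial ribosomal proteins, which form the separate ribosome inside mitochondria, took 0.261% ± 0.00683 in Bbs8+/+ and 0.258% ± 0.00838 in Bbs8-/-, with overlapping libraries.

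**Figure D2:**
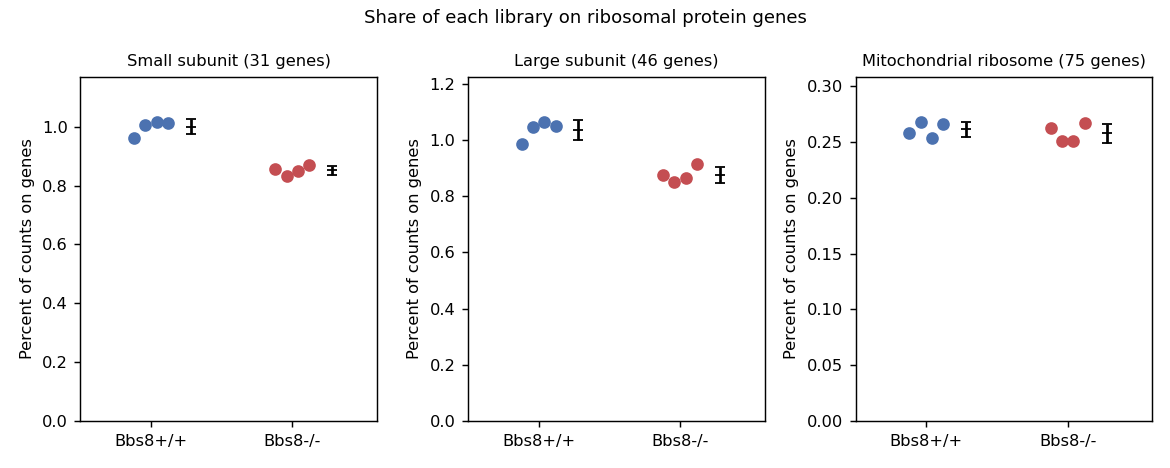
Percent of the counts on genes that fell on small subunit, large subunit and mitochondrial ribosomal protein genes in each of the 8 libraries (points), with the mean and SD of each genotype (bars), on axes that start at 0. The Bbs8-/- libraries lie below all Bbs8+/+ libraries for both cytosolic subunits and overlap them for the mitochondrial ribosome.

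Without Bbs8+/+ replicate 1, 31 genes fell and none rose, 27 of the 30 being the same genes, and the median log2 fold change was -0.26 with 69 of the 77 values below 0. With scaling by library size only, without the TMM factors of 0.955 to 0.980 in Bbs8+/+ and 1.02 to 1.05 in Bbs8-/-, 21 genes fell, Rps27a rose and the median was -0.16. That scaling moved the median of all genes by 0.09, and it turned the 877 lower and 704 higher calls among all tested genes into 654 and 1008.

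The acidic stalk is the flexible arm of the large subunit, formed by Rplp0 as its base and by dimers of Rplp1 and Rplp2. Rplp1 (ENSMUSG00000007892, chromosome 9, 61913284 to 61914542, minus strand, GRCm38) had the smallest adjusted p of all 77 genes. Its level was 911, 962, 959 and 885 CPM in Bbs8+/+ and 504, 497, 486 and 529 CPM in Bbs8-/-. The genotypes were far apart relative to the spread within each, and the mean went from 929 ± 37.5 CPM to 504 ± 18.3 CPM, a log2 fold change of -0.88 (SE 0.0729, adjusted p = 4.94e-12).

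Rplp2 (ENSMUSG00000025508, chromosome 7, 141447370 to 141451585, plus strand), whose start window is printed above, was at 549, 575, 568 and 544 CPM in Bbs8+/+ and at 355, 407, 371 and 356 CPM in Bbs8-/-. It also separated the genotypes, with a log2 fold change of -0.59 (SE 0.0803, adjusted p = 7.60e-07). Rplp0 (ENSMUSG00000067274, chromosome 5, 115559467 to 115563727, plus strand), which anchors the dimers to the ribosome and is a common reference gene in quantitative PCR, was at 127, 101, 120 and 112 CPM in Bbs8+/+ and at 77.7, 86.1, 102 and 112 CPM in Bbs8-/-. These groups overlapped, and the log2 fold change of -0.28 (SE 0.132, adjusted p = 0.184) did not pass the test.

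The log2 ratio of Rplp1 to Rplp0 within a library, which needs no scaling between libraries, was 2.84, 3.26, 3.00 and 2.98 in Bbs8+/+ and 2.70, 2.53, 2.25 and 2.24 in Bbs8-/-. The log2 ratio of Rplp1 to Rplp2 was 0.731, 0.744, 0.757 and 0.704 in Bbs8+/+ and 0.505, 0.290, 0.391 and 0.571 in Bbs8-/-. Both ratios were lower in all Bbs8-/- libraries than in any Bbs8+/+ library. Each had an exact permutation p of 0.0286, two-sided, the smallest that 4 libraries against 4 can give (0.0429 after Benjamini-Hochberg adjustment over the 3 stalk ratios). The ratios were chosen after the values had been seen, so these p-values are not independent evidence. The log2 ratio of Rplp2 to Rplp0 overlapped between the genotypes, with means of 2.29 ± 0.169 and 1.99 ± 0.273 (exact permutation p = 0.143).

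**Figure D3:**
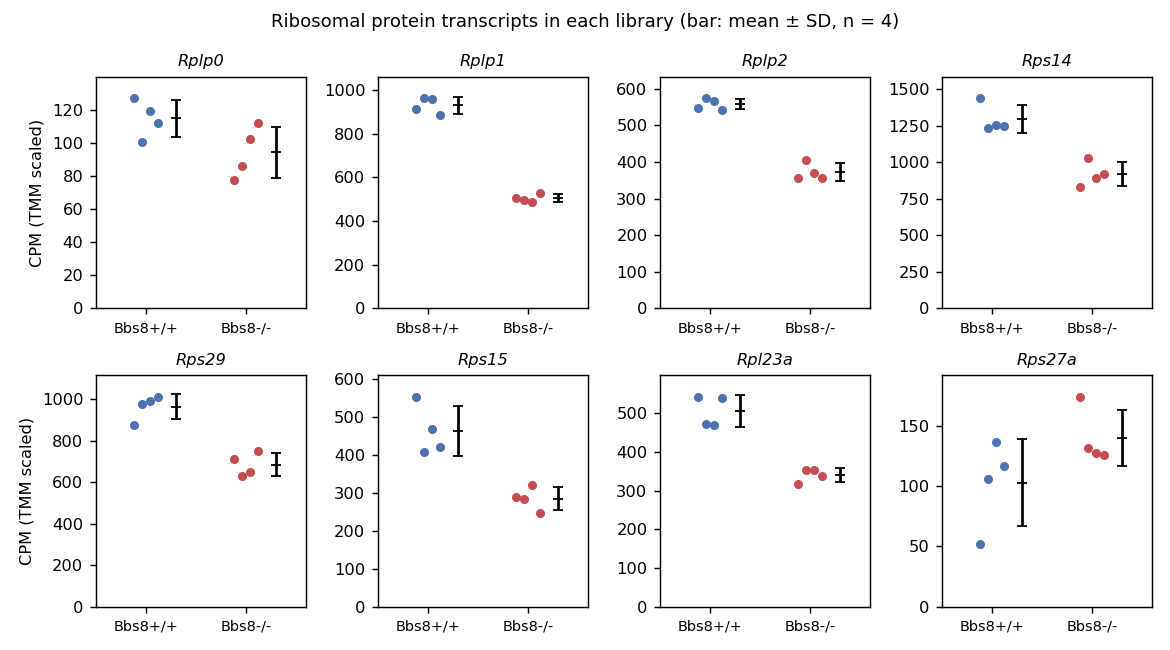
CPM (vertical axes, from 0) of 8 ribosomal protein transcripts in each library, with the mean and SD of each genotype. Rplp1, Rplp2, Rps14, Rps29, Rps15 and Rpl23a separate the genotypes with Bbs8-/- below, whereas Rplp0 and Rps27a overlap.

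Among small subunit genes, Rps14 and Rps29 were the most abundant. Rps14, a protein of the platform near the decoding site, was at 1438, 1236, 1253 and 1248 CPM in Bbs8+/+ and at 833, 1030, 891 and 921 CPM in Bbs8-/-. The genotypes did not overlap, although Bbs8+/+ replicate 1 stood above its group, and the log2 fold change was -0.49 (SE 0.0725, adjusted p = 2.77e-06). Rps29, a small zinc-binding protein of the small subunit head, was at 875, 976, 994 and 1013 CPM in Bbs8+/+ and at 712, 629, 649 and 753 CPM in Bbs8-/-, with a log2 fold change of -0.49 (SE 0.0751, adjusted p = 5.49e-06). Its groups did not overlap either.

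Rps15 (ENSMUSG00000063457, chromosome 10, 80292453 to 80294114, plus strand), which sits near the decoding site and is needed for export of the small subunit from the nucleus, was at 553, 407, 467 and 420 CPM in Bbs8+/+ and at 288, 285, 319 and 246 CPM in Bbs8-/-. The log2 fold change was -0.70 (SE 0.0967, adjusted p = 9.20e-07), the largest fall among small subunit genes. Rpsa, which is also known as the laminin receptor precursor, went from 202 ± 15.5 CPM to 136 ± 16.1 CPM (log2 fold change -0.56, adjusted p = 2.20e-04). Rps26, a protein that contacts the mRNA before the start codon, fell by 0.42 on the log2 scale. Other small subunit genes that fell included Rps7, Rps10, Rps12, Rps13, Rps20, Rps25 and Rps28, with log2 fold changes between -0.47 (Rps13) and -0.29 (Rps20). Rps25 is needed by several viral and cellular internal ribosome entry sites.

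Among large subunit genes other than the stalk, Rpl23a (ENSMUSG00000058546, chromosome 11, 78180932 to 78183584, minus strand), which lies at the rim of the exit tunnel where the signal recognition particle docks, was at 544, 473, 469 and 539 CPM in Bbs8+/+ and at 317, 353, 355 and 337 CPM in Bbs8-/-. The groups did not overlap, and the log2 fold change was -0.57 (SE 0.0842, adjusted p = 2.81e-06). Rpl37, a zinc-binding protein, went from 566 ± 26.5 CPM to 388 ± 36.2 CPM (log2 fold change -0.54, adjusted p = 5.28e-06). Rpl21 went from 252 ± 35.6 CPM to 169 ± 27.0 CPM (log2 fold change -0.57, adjusted p = 4.07e-04). Rpl3, which lies close to the peptidyl transferase centre, went from 291 ± 14.8 CPM to 236 ± 25.2 CPM (log2 fold change -0.30, adjusted p = 0.0299), and its Bbs8-/- replicate 4 at 274 CPM overlapped the lowest Bbs8+/+ library at 270.3 CPM. Further large subunit genes that fell included Rpl7, Rpl8, Rpl14, Rpl22, Rpl23, Rpl26 and Rpl37a, with log2 fold changes between -0.42 (Rpl26) and -0.27 (Rpl8), and the low Rpl10a and Rpl13a.

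Rpl10a (ENSMUSG00000037805, chromosome 17, 28328471 to 28331033, plus strand), a protein of the L1 stalk that moves the exit tRNA, was at 25.8, 35.5, 52.4 and 40.6 CPM in Bbs8+/+ and at 8.23, 11.1, 33.3 and 18.9 CPM in Bbs8-/-. The Bbs8-/- replicate 3 lay within the Bbs8+/+ range. The log2 fold change of -1.10 (SE 0.289, adjusted p = 0.00710) was the largest fall of the 77, but it rests on 20 to 128 counts in a library. Rpl13a, which is known for silencing inflammatory mRNAs after its release from the ribosome, went from 37.6 ± 2.14 CPM to 23.9 ± 4.91 CPM (log2 fold change -0.65, adjusted p = 0.0389).

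Genes were also counted by part of the ribosome or shared role, in groups chosen after the values had been seen. Of all 77 genes 39.0% fell, and no group was tested against that share. Of the 5 genes at the rim of the exit tunnel, Rpl23a and Rpl26 fell while Rpl19, Rpl31 and Rpl35 did not pass, and of the 3 whose proteins line the tunnel (Rpl4, Rpl17 and Rpl39) none passed (1 lower, Rpl4, at an unadjusted p under 0.05). Neither did Rpl5 (log2 fold change -0.28, adjusted p = 0.327) or Rpl11 (-0.20, adjusted p = 0.320), which carry the 5S ribosomal RNA and bind Mdm2 when assembly is disturbed. Of 10 genes that are mutated in Diamond-Blackfan anaemia, a failure of red cell formation, 4 fell (Rps7, Rps10, Rps26 and Rpl26), and those that did not pass included Rps19, Rps24 and Rpl35a. None of the 4 genes on the X chromosome (Rps4x, Rpl10, Rpl36a and Rpl39) passed, with log2 fold changes from -0.31 (Rps4x, adjusted p = 0.203) to 0.12 (Rpl39, adjusted p = 0.718, -0.058 without Bbs8+/+ replicate 1), and Rps4x alone had an unadjusted p under 0.05. DESeq2 called none of these groups' genes either where edgeR called none. Of the rim genes and of the Diamond-Blackfan genes 40% fell, near the share of all 77. The groups where none passed had median levels of 94 CPM (X chromosome), 110 CPM (tunnel lining) and 119 CPM (Rpl5 and Rpl11). Among the 26 least abundant of the 77 genes, which reach 137 CPM, 3 fell. On chromosome 7, which holds 14 of the 77 genes, 4 fell.

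Rps27a (ENSMUSG00000020460, chromosome 11, 29545846 to 29548109, minus strand) is made as a fusion with ubiquitin and so supplies both, and its values stood against the general direction. It was at 51.9, 106, 136 and 117 CPM in Bbs8+/+ and at 174, 131, 127 and 125 CPM in Bbs8-/-. The groups overlapped, Bbs8+/+ replicate 1 was the lowest and Bbs8-/- replicate 1 the highest, and the log2 fold change of 0.45 (SE 0.168, adjusted p = 0.0800) did not pass. It passed without Bbs8+/+ replicate 3 (0.61, adjusted p = 0.0165), with scaling by library size alone (0.53, adjusted p = 0.0346) and without the filter (0.44, adjusted p = 0.00690). Under the other alternatives, that without Bbs8+/+ replicate 1 included, Rps27a did not pass.

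Rps6 (ENSMUSG00000028495, chromosome 4, 86854660 to 86857412, minus strand), the substrate of S6 kinase whose phosphorylation is read as a sign of mTORC1 activity, was the gene with the fewest reads. It had 12, 14, 12 and 13 counts in Bbs8+/+ and 25, 22, 33 and 27 counts in Bbs8-/-, or 4.76 ± 0.493 and 10.2 ± 2.24 CPM. All Bbs8-/- libraries were higher, but the log2 fold change of 1.09 (SE 0.422, adjusted p = 0.0894) did not pass the test at this depth.

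Rpl17 was at 54.9, 96.4, 129 and 96.8 CPM in Bbs8+/+ and at 142, 116, 120 and 93.5 CPM in Bbs8-/-, with overlapping groups and a log2 fold change of 0.33 (SE 0.163, adjusted p = 0.218). Without Bbs8+/+ replicate 3 it was 0.51 (adjusted p = 0.0395). Under the other alternatives, that without Bbs8+/+ replicate 1 included, Rpl17 did not pass. The other 12 genes with values above 0 did not pass either, up to 0.36 for Rpl15 (adjusted p = 0.562).

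Measured levels of the 77 transcripts differed widely, although their proteins are needed in nearly equal numbers. In Bbs8+/+ the mean level ran from 4.76 CPM (Rps6) to 1293.5 CPM (Rps14), with a median of 243 CPM, 60 genes above 100 CPM and 9 below 50 CPM. In Bbs8-/- it ran from 10.2 to 919 CPM, with a median of 193 CPM. Ribosomal protein genes have many processed pseudogenes, and a read that maps equally well to a gene and a copy is not counted as unique. To see how far this touched each gene, the last 300 bases of its main transcript were searched in windows of 100 bases, the read length, for exact copies in annotated transcripts of other genes. No window had a copy in 31 genes, up to 50% of windows had one in 20 genes, and more than 50% in 26 genes. Copies elsewhere in the genome were not searched. Among the genes named above, the share of copied windows was 79.6% for Rps6, 84.6% for Rpl10a, 83.6% for Rps27a, 76.1% for Rpl23a, 33.8% for Rplp1 and 0% for Rplp0, Rplp2, Rps14 and Rpl37. The levels of genes with a large copied share are therefore uncertain.

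The fall was present in genes with no copied window, of which 15 of 31 fell (median log2 fold change -0.29). In genes with up to 50% copied windows, 8 of 20 fell (median -0.24), and in those with more, 7 of 26 (median -0.22). It went with the level of the transcript: 19 of the 26 most abundant genes fell (median -0.42), 8 of the 25 in the middle (median -0.23) and 3 of the 26 least abundant (median -0.04). Across the 77 genes, Spearman's rho between log2 mean CPM and log2 fold change was -0.47, between the copied share and log2 mean CPM -0.20, and between the copied share and log2 fold change 0.24. These describe genes of the same 8 libraries, which are not independent replicates, and more counts also make a given change easier to call.

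**Figure D4:**
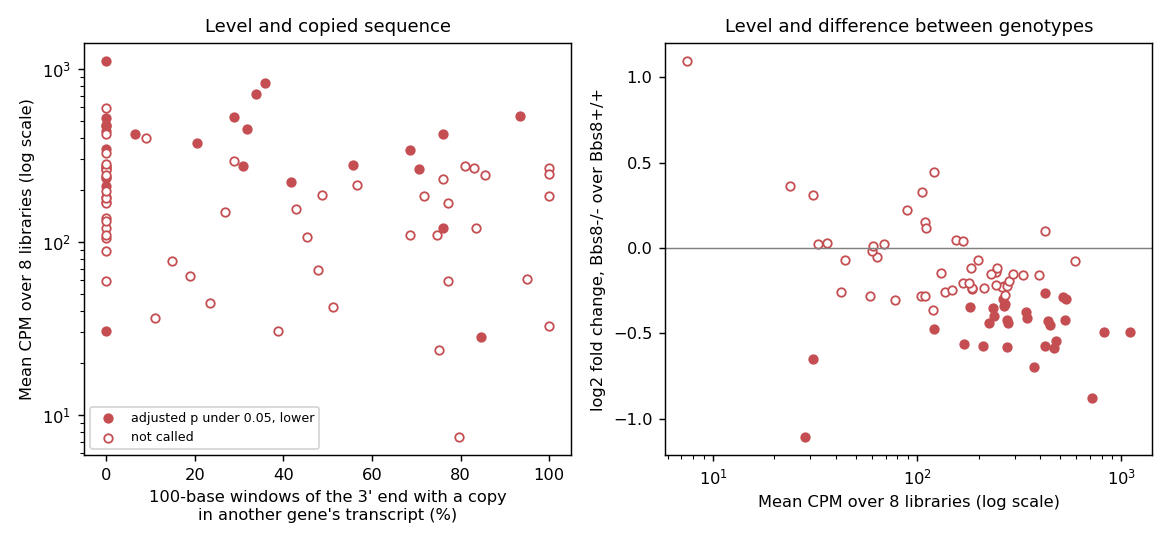
Left, mean CPM over the 8 libraries (log scale) against the percent of 100-base windows of the transcript end with a copy in another gene's transcript. Right, fitted log2 fold change against mean CPM (log scale). Each point is 1 of the 77 genes, filled where it fell at an adjusted p under 0.05, and 19 of the filled points are among the 26 most abundant genes.

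Within a genotype the genes varied about as much as others. The median coefficient of variation over the 4 libraries was 9.87% in Bbs8+/+ and 10.0% in Bbs8-/-. For the 39 genes between 110 and 294 CPM it was 10.2% and 10.0%, against 9.25% and 9.18% for 1046 other genes in that range. The lower values of Bbs8+/+ replicate 1 were widest in Rpl15 (4.07 CPM, against 22.05 to 34.8 CPM in the other Bbs8+/+ libraries), Rps23 (36.6 against 93.1 to 101 CPM) and Rps2 (30.5 against 52.9 to 103 CPM), none of which passed the test between genotypes. In that library 19 of the 26 genes with more than 50% copied windows, and 15 of the 31 with none, had the lowest Bbs8+/+ value.

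Fau and Rack1, ribosomal proteins whose symbols the rule does not catch, moved the same way. Fau, which yields Rps30, fell by 0.50 on the log2 scale (adjusted p = 2.23e-04), from 241 to 170.4 CPM, and Rack1, a scaffold on the small subunit head, fell by 0.33 (adjusted p = 0.0189). Of the paralogues that can replace a ribosomal protein, 5 were tested and none passed. At an unadjusted p under 0.05 edgeR gave 1 lower, Rpl22l1 (log2 fold change -0.34, adjusted p = 0.158), and 1 higher, Rps27l, a p53 target (0.38, adjusted p = 0.165), and DESeq2 called none. The muscle form Rpl3l had at most 5 counts in a library, and the testis forms Rpl10l and Rpl39l had none.

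The machinery around the ribosome was measured in the same libraries, in lists written with earlier results of these data known. Of all tested genes, 6.8% were lower and 5.46% were higher. Of the 75 mitochondrial ribosomal proteins, 2 fell (2.67%) and none rose, with a median of -0.09. They were Mrpl49 (log2 fold change -0.44) and Mrpl34 (-0.38). The median level of the 75 genes was 27.6 CPM, against 212 CPM for the cytosolic ribosomal proteins. Among the 26 least abundant cytosolic genes, 3 fell, with a median of -0.04. The part of level in this contrast was not tested. Of 13 elongation and other TOP genes, 3 fell (23.1%) and none rose, with a median of -0.20. They were Eef2, the translocase, which went from 1126 to 844 CPM (log2 fold change -0.42, adjusted p = 8.28e-05), Eef1g (-0.38) and Pabpc1, the poly-A binding protein (-0.30). Eef1a1, which brings tRNA to the ribosome, was at 520 and 541 CPM (log2 fold change 0.06, adjusted p = 0.808, and -0.076 without Bbs8+/+ replicate 1).

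Of 29 initiation factors, 4 fell (13.8%) and none rose, with a median of -0.05. These were Eif3f (log2 fold change -0.71, adjusted p = 1.02e-05), Eif3g (-0.60) and Eif3h (-0.51), all subunits of eIF3, and Eif4g2 (-0.23). Of the ribosome biogenesis genes 5.45% fell, against 6.8% of all tested genes. These were 3 of 55, and none rose, but the median of -0.24 was near that of the ribosomal proteins. They were Nop10, of the pseudouridylation complex (log2 fold change -0.88, adjusted p = 1.39e-04), Gnl2, a GTPase of large subunit maturation (-0.89, adjusted p = 3.46e-04), and Bysl, of small subunit maturation (-0.97, adjusted p = 0.00348). These genes had a median level of 18.4 CPM, against 212 CPM for the ribosomal proteins.

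None of 15 genes of RNA polymerase I and its factors, which transcribe ribosomal RNA, passed the test (median -0.13). Of 22 genes that control growth and ribosome synthesis, Deptor, an inhibitor of mTOR (log2 fold change -0.99, adjusted p = 0.00272), and Max, the partner of Myc (-0.36, adjusted p = 0.0220), fell, and none rose. These 2 were 9.09% of the list, against 6.8% of all tested genes. Mtor itself was at -0.44 (adjusted p = 0.0785) and passed without Bbs8+/+ replicate 1 (-0.50, adjusted p = 0.0477) or without Bbs8-/- replicate 1 (-0.57, adjusted p = 0.0264). Myc had at most 1 count and Mycn at most 3 in a library, which leaves them at the floor. None of 11 genes of assembly stress and p53 targets passed (median 0.02). At an unadjusted p under 0.05, edgeR gave no gene of the RNA polymerase I list and 3 higher and 1 lower of the stress list. The genes higher at that level numbered 1 of the mitochondrial ribosomal, 2 of the initiation, 1 of the biogenesis, 1 of the growth control and 0 of the elongation list. Those lower numbered 9 of the mitochondrial ribosomal, 6 of the initiation, 13 of the biogenesis, 4 of the growth control and 4 of the elongation list. Over all 12889 tested genes, 1563 were lower and 1453 higher at that level. DESeq2 called 1 initiation factor and 1 stress gene higher, none higher in the other lists, and 1 mitochondrial ribosomal gene lower.

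**Figure D5:**
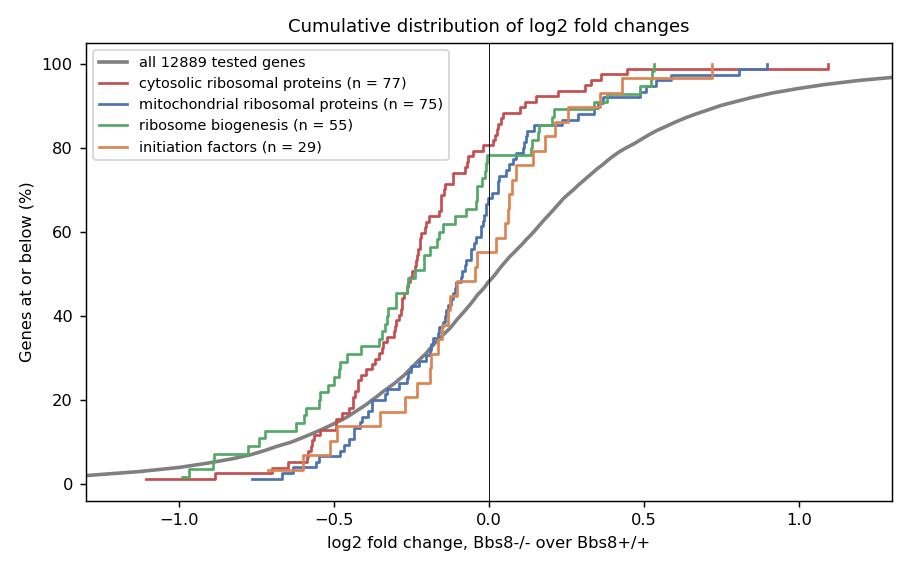
Cumulative share of genes (vertical axis, percent) at or below a given log2 fold change (Bbs8-/- over Bbs8+/+, horizontal axis, shown from -1.3 to 1.3) for the cytosolic ribosomal proteins, 3 related lists and all 12889 tested genes. The cytosolic ribosomal protein curve crosses 50% at -0.25, the ribosome biogenesis curve at -0.24, the mitochondrial ribosomal protein curve at -0.09, the initiation factor curve at -0.05 and the curve of all genes at 0.02.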

How the data were processed

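RPE RNA of 4 Bbs8+/+ and 4 Bbs8-/- mice at P29 was measured in QuantSeq 3′ libraries. The authors trimmed the reads, aligned them with STAR to mm10, counted uniquely mapped reads per Ensembl 93 gene with htseq-count and deposited these raw counts for each library. Reads that did not map uniquely were 32.8% to 34.5% of those tallied in a library. Symbols came from GENCODE M21 and named 31011 of 31053 identifiers. Samples were grouped by their labels.

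Counts were fitted over all 12889 tested genes in R 4.3.3 with edgeR 4.0.16 (TMM, quasi-likelihood F test, two-sided, Benjamini-Hochberg, adjusted p under 0.05). CPM values are TMM scaled. DESeq2 1.42.0, the likelihood ratio test, other scalings and filters, an adjusted p of 0.01, a replicate block and leaving out each library were alternatives. The study's filter on multi-mapping reads needs alignments and was not repeated. The fit was also run on simulated counts that lacked the difference in composition between the genotypes, and no result here rests on that run. Pyrimidine runs and motifs were counted by letter matching, at any listed start of a gene.

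The genes and the lists were chosen with earlier results of these data known. Named were Ttc8, up to 12 genes past the threshold by adjusted p, the 3 most and 3 least abundant, paralogue pairs, the stalk, Rpsa, Fau and Rack1, up to 3 genes per related list and 3 markers. Other genes named, and the groups by position in the ribosome, were chosen after their values were seen. Single values of a few genes are not reported here, and counts over the 77 genes include them.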

Additional observations from a re-analysis of the deposited data

Results flagged for a closer look

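Single libraries stood away from the other 3 of their genotype, by Dixon's criterion, in 8 of the 134 groups of values checked, which covered 66 genes and the summed share of counts. Chance gives about 1 in 20. Of these, 2 concerned Bbs8+/+ replicate 1. Rps14 was at 1438 CPM there against 1236 to 1253 CPM in the other libraries, and Rps27 at 177 CPM against 274 to 292 CPM. In Bbs8-/- replicate 1, Rps27a was at 174 CPM against 125 to 131 CPM, Rpl14 at 204 CPM against 242 to 249 CPM, and Gnat1, the rod transducin used as a photoreceptor marker, at 3359 CPM against 3002 to 3058 CPM. Rps20 was at 412 CPM in Bbs8-/- replicate 2 against 476 to 489 CPM, Rpl21 at 129 CPM in replicate 3 against 179 to 189 CPM, and Rpl3 at 274 CPM in replicate 4 against 220.0 to 226 CPM.

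Reads that fell on no gene model, which entered no comparison, made up a mean of 20.2% of a Bbs8-/- library, above the Bbs8+/+ libraries at 17.0% to 18.4%. Their part in the differences between genotypes was not tested.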

How the results depend on the processing

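Of the 30 genes that fell, 20 fell under every alternative run and 21 whichever library was left out. The number that fell was 31 with DESeq2, 28 with the likelihood ratio test, 32 without the filter, 22 at an adjusted p of 0.01, and between 23 and 31 with 1 library left out. Of the 30, 27, 25, 26 and 23 remained without Bbs8+/+ replicates 1, 2, 3 and 4, and 24, 26, 25 and 29 without the same replicates of Bbs8-/-. Restricted to the 31 genes with no copied window, a choice made after seeing the data that replaced a planned search of the genome, which was not run, 15 fell. The number that rose was 1 (Rps27a) with scaling by library size alone, 1 (Rps27a) without the filter, and between 0 and 2 with 1 library left out, the 2 being Rps27a and Rpl17 without Bbs8+/+ replicate 3. Rps27, which did not pass, fell without Bbs8+/+ replicate 1 (-0.26, adjusted p = 0.0495). The median log2 fold change was -0.16 with library size alone and lay between -0.28 and -0.24 with 1 library left out. The difference in the share of counts was -0.410 percentage points without photoreceptor, lens and erythrocyte genes in the denominator and between -0.338 and -0.294 with 1 library left out. Between 57 (library size alone) and 69 (without Bbs8+/+ replicate 1) of the 77 values were below 0, against 62 as reported. Among the genes followed singly through the alternatives, the sign turned for 4, none of which passed the test. Rpl39 lay between -0.058 and 0.22 and Eef1a1 between -0.076 and 0.13 with 1 library left out, both below 0 without Bbs8+/+ replicate 1. Rps21 was at 0.0094 with library size alone. The paralogue Rpl36al was at 0.0054 with DESeq2, 0.087 with library size alone, 0.011 with edgeR's own filter and between -0.078 and 0.099 with 1 library left out. The cause was not tested. Same-numbered libraries of the genotypes did not deviate together (correlations between -0.0321 and 0.00673), and with the replicate block 29 genes fell, none rose and the median was -0.25. Depth limits the genes with few reads, such as Rps6 at 12 to 33 counts.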
